A study of Mus musculus with 6 samples.

Results

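The genes described here are the 4 Notch receptors and their ligands, chosen by name from the deposited expression table: the rows Notch1, Notch2, Notch3, Notch4, Jag1, Jag2, Dll1, Dll4 and Dlk1, and a row named NOTCH2 in capitals. They are 10 of the 19503 rows that held values. Sequencing covered whole-kidney RNA at 8 weeks of age, in 3 mouse libraries labelled wild type and 3 labelled R26NICD2/+pax8cre, here NICD2. R26NICD2 places the coding sequence of the Notch2 intracellular domain at Rosa26, and the Pax8 promoter acts in the epithelium of the renal tubule and is not known for activity in vessels or stroma. The genotype label gives pax8cre, the title of the series gives Pax-rtTA, and the titles of the wild-type libraries also begin with NICD. The driver, and whether the wild-type mice carried the allele without it, could not be settled. The labels do not say that each library came from a separate animal or whether animals were pooled, and each p-value rests on the spread of these libraries alone, which may be technical.

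Notch receptors are single-pass proteins of the cell surface that are activated by ligands on a neighbouring cell. Ligand binding exposes the receptor to cleavage by an ADAM protease and then by gamma-secretase, which frees the intracellular domain. That domain enters the nucleus, joins the DNA-binding protein RBPJ and a Mastermind coactivator, and switches on targets of the Hes and Hey families. In the developing kidney the pathway takes part in patterning the nephron, and in the adult it is known for being turned on again in injured tubules. An intracellular domain made from a transgene needs neither ligand nor cleavage.

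In the NICD2 kidneys 5 of the 9 members that could be tested rose and 1 fell. The annotated genes Notch1, Notch2, Notch3 and Jag1 and the NOTCH2 row rose, and Notch4, the receptor of vascular endothelium, fell. Whether the NOTCH2 and Notch2 rows hold fragments of the introduced allele was not tested. Jag1 went from 3.24 ± 0.486 to 64.4 ± 8.29 FPKM (fragments scaled to transcript length and library size; mean ± SD of 3 libraries), and Notch1 from 3.60 ± 0.954 to 51.9 ± 0.933 FPKM. The other ligands Jag2, Dll1 and Dll4 did not pass the test and stayed under 5 FPKM in all 6 libraries. Calls are from limma on log2(FPKM + 1) at a Benjamini-Hochberg adjusted p under 0.05 over the 13500 genes that reached 1 FPKM in 3 or more libraries, and fold changes in log2 are on that scale, which understates the change of low genes. Among all genes tested 45.1% were called higher and 16.2% lower, so a call by itself is common in these data. The groups did not overlap for 5 members that were higher in NICD2 and 2 that were lower, against 49.9% and 18.8% of all genes.

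The size of the differences separated the members more than the calls did. The NOTCH2 row ranked 2, Jag1 58, Notch1 100 and Notch3 296 among the 13500 genes ordered from the highest log2 fold change, and Notch2 ranked 1868. The median log2 fold change of the 9 tested members was 1.19, and that of all genes tested was 0.32. Median-of-ratios scaling of the FPKM values brought the median of all genes to 0.02 and that of the members to 0.88. Both medians of the members are the value of the Notch2 row, and the 9 include the NOTCH2 row. Either row may hold fragments of the allele, so these medians may in part reflect the introduced sequence, which was not tested. After that scaling the members split into 5 higher and 3 lower, with Jag2 and Dll1 joining Notch4, against 28.7% and 25.7% of all genes. In the authors' deposited table, 5 members were higher and 4 lower at a q under 0.05, against 21.3% and 21.5% of its genes. That count is over all 10 members. Its 4 lower include Dlk1, which was not tested in limma and was high in wild-type replicate 1 alone (47.4 FPKM, against 0.05 and 0.24 in the other wild-type libraries).

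**Figure D1:**
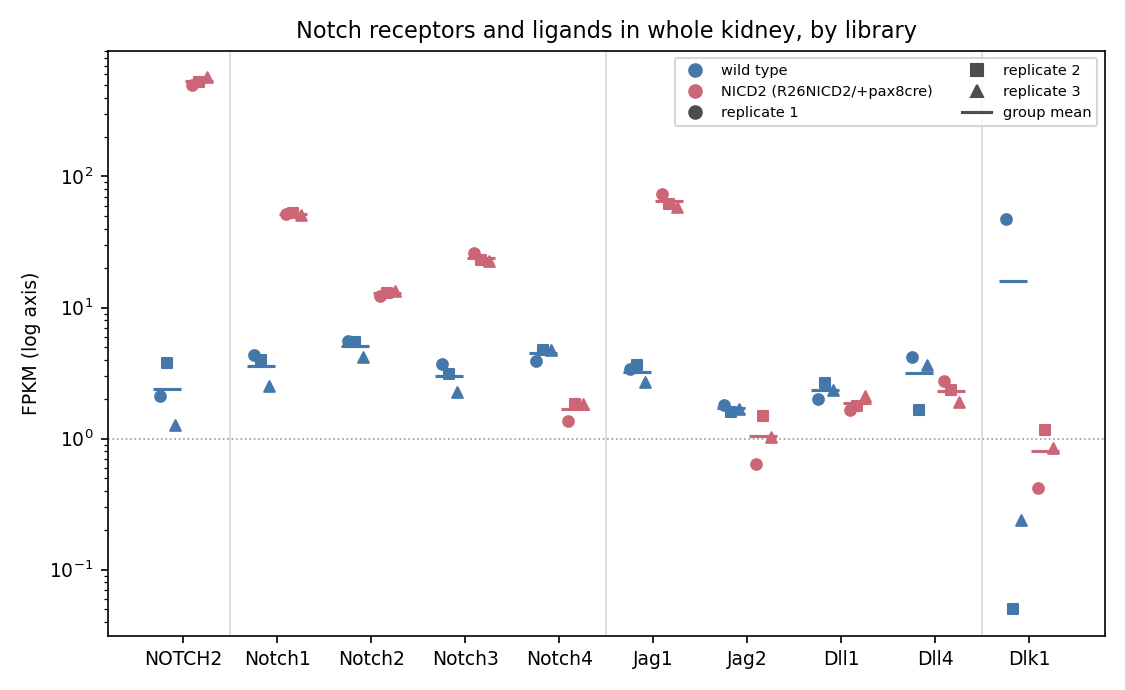
FPKM on a log axis for each member in the 3 wild-type (blue) and 3 NICD2 (red) libraries, with symbols for replicates and bars for group means; the dotted line marks 1 FPKM. NOTCH2, Notch1, Notch2, Notch3 and Jag1 lie higher in every NICD2 library, Notch4 and Jag2 lie lower, Dll1 and Dll4 overlap, and wild-type replicate 1 stands alone at 47.4 FPKM for Dlk1.

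Kidney markers were present in every library, with Umod, a gene of the thick ascending limb, at 658 to 1498 FPKM in wild-type and 964 to 1611 FPKM in NICD2 libraries. Umod was the 1 of 6 distal nephron markers that did not pass the test, and the other 5 fell, among them Slc12a1, the salt transporter of the same segment, which was 11.2-fold lower. Podocyte markers fell for 5 of 6 and rose for 1. Wild-type replicate 1 stood apart, with 3707 FPKM summed over 8 markers of adrenal cortex and 1991 FPKM over 6 of adrenal medulla, against at most 1.77 and 0.26 FPKM in the other 5 libraries. Its sum over 6 fat markers was 4312 FPKM, against 63.1 to 892.5 FPKM elsewhere. The 7 proximal tubule markers all fell in NICD2, with a summed level of 4206 to 6187 FPKM in wild type and 124.6 to 582.2 FPKM in NICD2. Macrophage markers rose for 4 of 6, and their summed level was 45.4 to 152.2 FPKM in wild type and 249.1 to 302.5 FPKM in NICD2. Of all genes tested 45.1% rose and 16.2% fell. The distal, podocyte, proximal tubule and macrophage counts were the same after median-of-ratios scaling, beside 28.7% and 25.7% of all genes. A kidney with fewer cells of a type and one with less RNA of that type per cell cannot be told apart in such bulk libraries. The part of these shifts in the values of the receptors and ligands was not tested, apart from the ratios to endothelial and mural markers given with Notch4, Notch3 and Dll4. Depth is not in the table and was estimated at 14600000 to 17600000 fragments per library.

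The 250 bases upstream of the start sites are shown for Notch1, Notch3 and Jag1, the annotated members with the largest rises, and for Notch4, the member that fell, so that the regions from which these genes are read can be compared. They come from the RefSeq annotation of GRCm38.p6 and read in the direction of transcription, with each GC box (GGGCGG on either strand) in capitals. The windows are chr2:26503823-26504072 on the minus strand for Notch1, chr17:32166891-32167140 on the minus strand for Notch3, chr2:137116521-137116770 on the minus strand for Jag1 and chr17:34564045-34564294 on the plus strand for Notch4. RefSeq's start sites for Notch3 (32166890) and Notch4 (34564295) lie a few bases inside the genes as the deposited table places them, so these 2 windows overlap the table's gene by those bases.
Notch1: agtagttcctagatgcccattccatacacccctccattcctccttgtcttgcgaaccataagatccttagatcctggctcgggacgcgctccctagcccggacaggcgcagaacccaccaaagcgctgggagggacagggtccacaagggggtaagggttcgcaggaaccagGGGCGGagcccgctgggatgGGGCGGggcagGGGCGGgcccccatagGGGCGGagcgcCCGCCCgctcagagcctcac
Notch3: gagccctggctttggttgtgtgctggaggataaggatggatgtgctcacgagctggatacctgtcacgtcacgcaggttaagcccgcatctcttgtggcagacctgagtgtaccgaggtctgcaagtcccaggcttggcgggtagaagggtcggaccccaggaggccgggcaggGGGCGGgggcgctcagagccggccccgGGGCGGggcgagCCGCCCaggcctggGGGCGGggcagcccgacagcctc
Jag1: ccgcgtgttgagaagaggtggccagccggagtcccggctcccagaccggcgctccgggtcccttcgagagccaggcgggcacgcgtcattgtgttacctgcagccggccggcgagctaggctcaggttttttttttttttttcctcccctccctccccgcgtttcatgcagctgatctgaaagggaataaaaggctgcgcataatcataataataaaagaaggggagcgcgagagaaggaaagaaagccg
Notch4: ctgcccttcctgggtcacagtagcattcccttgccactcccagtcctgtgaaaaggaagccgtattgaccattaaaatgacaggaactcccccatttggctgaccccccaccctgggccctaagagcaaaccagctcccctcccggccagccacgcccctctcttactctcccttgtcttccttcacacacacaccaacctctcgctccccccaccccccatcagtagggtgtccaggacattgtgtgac
Notch1 held 5 GC boxes in its window and Notch3 4, whereas Jag1 and Notch4 held 0. Of all 32851 windows of this length, 32.7% held at least 1. The Jag1 window was rich in CG dinucleotides without GC boxes, with 20, close to the 16 of Notch1 and the 17 of Notch3, and the Notch4 window had 4 (median of all windows, 6). The letters TGGGAA, the core that RBPJ recognises, were in 0 of the 10 windows found for 9 members on either strand, and in 21.6% of all windows. A match of letters is a description of the window and not a bound site.

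The NOTCH2 row separated the libraries as their genotype labels do. It stood at 2.13, 3.75 and 1.27 FPKM in wild-type replicates 1 to 3 and at 500.5, 521.0 and 570.4 FPKM in NICD2 replicates 1 to 3. Every NICD2 library lay far above every wild-type library, and the mean rose 222.6-fold, between 2.38 ± 1.26 and 530.6 ± 35.9 FPKM (mean ± SD of 3 libraries). The log2 fold change was 7.36 with SE 0.25 (adjusted p = 1.57e-05), and 7.06 after scaling. The table gives this row no position, length or annotation, so the sequence behind it, and whether it stands for the transgene, is not stated, and it is no independent check of the genotype.

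Notch2, the receptor whose intracellular domain the allele encodes, has its own annotated row (gene 18129, chromosome 3, 98013538 to 98150367, plus strand, GRCm38 coordinates). It read 5.55, 5.50 and 4.19 FPKM in wild type and 12.2, 12.8 and 13.4 FPKM in NICD2. The groups did not overlap and the mean rose 2.52-fold, or 1.98-fold after scaling (log2 fold change 1.19, SE 0.13, adjusted p = 3.72e-04; 0.88 after scaling, adjusted p = 8.70e-04). The NOTCH2 row was 41.1, 40.7 and 42.4 times the Notch2 row in the 3 NICD2 libraries and 0.384, 0.682 and 0.303 times it in the wild-type libraries. The multiple thus varied little among NICD2 libraries. How many of the fragments in the Notch2 row came from the allele was not tested.

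Notch1 (gene 18128, chromosome 2, 26457902 to 26503822, minus strand) is the receptor best known from blood and epithelial cell fate decisions. Its level was 4.33, 3.95 and 2.52 FPKM in wild type and 52.0, 52.7 and 50.9 FPKM in NICD2. The NICD2 libraries lay within 2 FPKM of each other and did not overlap with wild type. The mean rose 14.4-fold (log2 fold change 3.54, SE 0.17, adjusted p = 3.31e-05), with a log2 fold change of 3.24 after scaling (adjusted p = 4.34e-05). About 354 to 595 fragments stood behind the wild-type values and 7730 to 8370 behind the NICD2 values.

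The change of Notch1 was larger than that of Notch2 within the same libraries. The ratio of Notch1 to Notch2 was 0.780, 0.718 and 0.601 in wild type and 4.27, 4.12 and 3.79 in NICD2, a 5.82-fold difference that no scaling of a library alters. Notch2 was the more abundant of the pair in every wild-type library and Notch1 in every NICD2 library. An exact two-sided permutation test over libraries gave p = 0.1, the smallest that 3 against 3 allows (0.12 after adjustment over the 6 ratios examined).

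Notch3 (gene 18131, chromosome 17, 32120820 to 32166896, minus strand) is known as the receptor of vascular smooth muscle and pericytes. It read 3.71, 3.09 and 2.26 FPKM in wild type and 25.8, 23.2 and 22.7 FPKM in NICD2. All NICD2 libraries lay above all wild-type libraries. The mean rose 7.92-fold, with group means of 3.02 ± 0.728 and 23.9 ± 1.69 FPKM (SD of 3 libraries). In log2 the change was 2.65 (SE 0.15, adjusted p = 5.77e-05), and 2.35 after scaling (adjusted p = 8.83e-05).

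Markers of mural cells gave a mixed picture beside Notch3. Of the 11 mural markers 6 rose and 2 fell, beside 45.1% and 16.2% of all genes, and after scaling 4 rose and 2 fell, beside 28.7% and 25.7%. Their summed level was 166.8, 123.8 and 114.0 FPKM in wild type and 338.4, 395.4 and 375.1 FPKM in NICD2. Much of that sum was the contractile genes Acta2 (29.3 and 136.7 FPKM in the group means) and Tagln (38.6 and 137.7 FPKM), which rose. The other markers that rose were Cspg4 (4.08 and 10.8 FPKM), Rgs5 (19.55 and 29.15 FPKM), Mcam (9.68 and 19.8 FPKM) and Cnn1 (1.17 and 3.97 FPKM). Of these Rgs5 and Mcam did not pass after scaling. Pdgfrb (12.2 and 14.4 FPKM), Des and Myh11 did not pass. The 2 that fell were the potassium channel genes Abcc9 and Kcnj8, and all of these were named after their values were seen. Relative to this sum Notch3 was at 0.0223, 0.0250 and 0.0198 in wild type and at 0.0764, 0.0587 and 0.0605 in NICD2. The ratio was thus 2.91-fold higher in NICD2 with no overlap of the groups (exact two-sided permutation p = 0.1, adjusted 0.12). Which cells carried the added Notch3 transcript was not tested.

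Notch4 (gene 18132, chromosome 17, 34564286 to 34588543, plus strand), the endothelial receptor, was the receptor that fell. It read 3.94, 4.74 and 4.76 FPKM in wild type and 1.35, 1.85 and 1.85 FPKM in NICD2. Every NICD2 library was below every wild-type library, and the mean went from 4.48 ± 0.468 to 1.68 ± 0.289 FPKM (SD, n = 3 each). That is 2.66-fold lower, or 3.42-fold after scaling (log2 fold change -1.03, SE 0.14, adjusted p = 8.61e-04; -1.29 after scaling, adjusted p = 8.02e-04).

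Endothelial markers fell beside Notch4. Of 11 markers 9 fell and 0 rose in limma (9 and 0 at an unadjusted p under 0.05), beside 16.2% and 45.1% of all genes. After scaling 10 fell and 0 rose, beside 25.7% and 28.7%. The summed level of the markers was 339.1, 323.7 and 303.2 FPKM in wild type and 142.9, 172.1 and 184.8 FPKM in NICD2. Relative to that sum, Notch4 stood at 0.0116, 0.0146 and 0.0157 in wild type and at 0.00945, 0.0107 and 0.010 in NICD2. The groups did not overlap, and the ratio was 1.38-fold lower in NICD2 (exact two-sided permutation p = 0.1, adjusted 0.12). Much of the sum was Plvap, Emcn and Eng. Taken singly, the markers had a median log2 fold change of -1.05, beside -1.03 for Notch4, on a scale that understates the change of low genes. In mean FPKM Notch4 was 2.66-fold lower and Flt1, the marker at that median, 2.27-fold. The markers singled out here were named after their values were seen. Tek and Kdr, receptors of endothelium, were 3.49-fold and 3.08-fold lower, and Pecam1 and Eng 1.76-fold and 1.64-fold. Cdh5 (1.46-fold lower, limma adjusted p = 0.107) and Esam (16.65 and 16.95 FPKM, adjusted p = 0.952) did not pass. The size of the Notch4 ratio thus depends on which markers it is set against.

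The make-up of the receptor family changed with these levels. The summed FPKM of Notch1 to Notch4 was 13.7 to 17.5 in wild type and 88.9 to 91.4 in NICD2. In wild type Notch2 made up 31.3% ± 0.714, Notch4 28.2% ± 6.13, Notch1 21.97% ± 3.27 and Notch3 18.5% ± 2.41 of that sum (SD, n = 3 each). In NICD2 Notch1 made up 57.5% ± 0.680, Notch3 26.5% ± 1.56, Notch2 14.2% ± 0.895 and Notch4 1.87% ± 0.338. The annotated Notch2 row thus took a smaller share in NICD2 although its level rose. The NOTCH2 row, at 500.5 to 570.4 FPKM in NICD2, is left out of this sum, so the shares hold for the annotated rows only. The part of the allele in the Notch2 row was not tested.

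**Figure D2:**
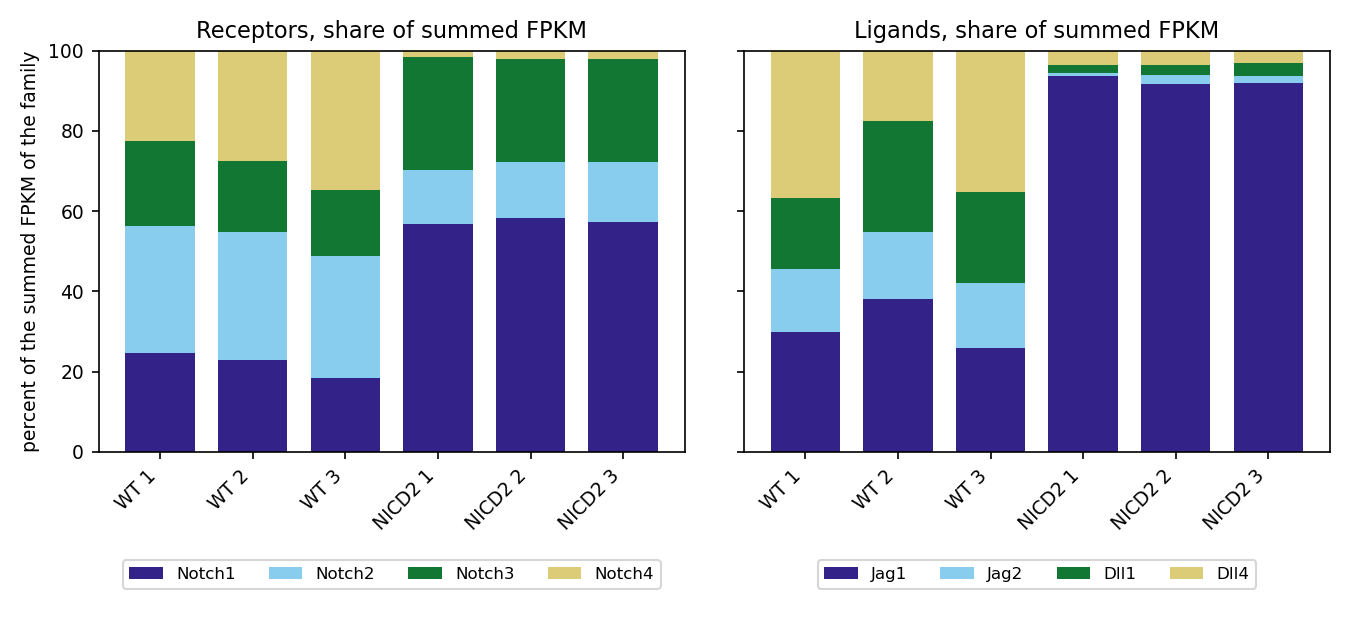
Share of the summed FPKM of the 4 annotated receptors (left, without the NOTCH2 row) and of the 4 ligands Jag1, Jag2, Dll1 and Dll4 (right) in each library, in percent. In NICD2 libraries Notch1 holds 56.9 to 58.2% of the receptor sum and Jag1 91.7 to 93.6% of the ligand sum.

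Among the ligands Jag1 (gene 16449, chromosome 2, 137081451 to 137116520, minus strand), a Serrate-type ligand needed for the proximal part of the developing nephron, was the member that rose. It read 3.40, 3.62 and 2.69 FPKM in wild type and 73.8, 61.4 and 58.1 FPKM in NICD2. Every NICD2 library was more than 10 times as high as every wild-type library. The mean rose 19.9-fold (log2 fold change 3.95, SE 0.14, adjusted p = 1.57e-05; 3.64 after scaling, adjusted p = 2.28e-05). It was the largest rise of an annotated member, ahead of Notch1.

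Jag2 (gene 16450, chromosome 12, 112907803 to 112929812, minus strand), the second Serrate-type ligand, did not share that change. It read 1.81, 1.59 and 1.69 FPKM in wild type and 0.640, 1.48 and 1.03 FPKM in NICD2. All NICD2 values were below all wild-type values, but the difference did not pass the test (log2 fold change -0.42, SE 0.18, adjusted p = 0.0781). It passed after scaling (-0.61, adjusted p = 0.0212) and without NICD2 replicate 2, the highest of its group (-0.56, adjusted p = 0.0418). In the authors' deposited table its log2 fold change was -1.02 (q = 0.0101). Only about 50 to 130 fragments stood behind each value.

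Dll1 (gene 13388, chromosome 17, 15367354 to 15376927, minus strand), a Delta-type ligand, read 1.99, 2.65 and 2.36 FPKM in wild type and 1.66, 1.77 and 2.13 FPKM in NICD2. The groups overlapped, since NICD2 replicate 3 lay above wild-type replicate 1, and the difference did not pass (log2 fold change -0.22, SE 0.14, adjusted p = 0.196). After scaling it passed and the groups no longer overlapped (-0.46, adjusted p = 0.0375). The authors' deposited table gave a log2 fold change of -0.67 (q = 0.0335).

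Dll4 (gene 54485, chromosome 2, 119325784 to 119335666, plus strand), the Delta-type ligand of arterial and sprouting endothelium, read 4.2, 1.66 and 3.65 FPKM in wild type and 2.73, 2.34 and 1.90 FPKM in NICD2. Wild-type replicate 2 was the lowest of all 6 libraries, so the groups overlapped (log2 fold change -0.28, SE 0.27, adjusted p = 0.395; -0.53 after scaling, adjusted p = 0.130). Without that library the difference passed the test (-0.57, adjusted p = 0.0344). The authors' deposited table gave -0.77 with q = 0.0742. Relative to the endothelial markers, which fell, Dll4 was at 0.0124, 0.00513 and 0.0120 in wild type and 0.0191, 0.0136 and 0.0103 in NICD2. These ratios overlapped (exact two-sided permutation p = 0.4, adjusted 0.4).

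The ligands therefore moved apart within the same libraries. Jag1 was 1.88, 2.28 and 1.59 times the level of Jag2 in wild type and 115.3, 41.5 and 56.4 times in NICD2. It was 1.71, 1.37 and 1.14 times the level of Dll1 in wild type and 44.5, 34.7 and 27.3 times in NICD2. The ratios differed 34.1-fold and 25.1-fold between the groups, without overlap (exact two-sided permutation p = 0.1 for each, adjusted 0.12). Summed over Jag1, Jag2, Dll1 and Dll4, ligand FPKM was 10.4 ± 0.941 in wild type and 69.7 ± 8.18 in NICD2 (SD, n = 3 each). Jag1 was 31.3% ± 6.19 of that sum in wild type and 92.4% ± 1.05 in NICD2, while Dll4 held 29.8% ± 10.7 and 3.32% ± 0.270.

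**Figure D3:**
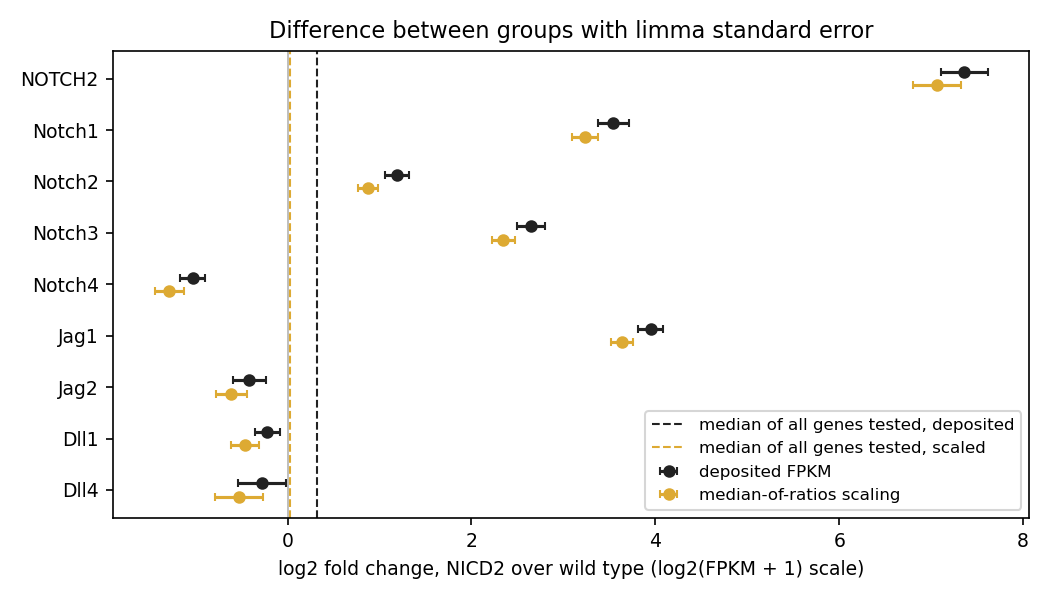
Log2 fold change of NICD2 over wild type with limma's standard error for the 9 tested members, from deposited FPKM (black) and after median-of-ratios scaling (yellow), with dashed lines at the medians of all genes tested (0.32 and 0.02). Scaling lowers every member but leaves NOTCH2, Notch1, Notch2, Notch3 and Jag1 to the right of the median line and the other 4 to the left.

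Dlk1 (gene 13386, chromosome 12, 109452485 to 109463336, plus strand) encodes a Delta-like protein without the domain that activates Notch, and is known from adrenal and fat precursor cells. It reached 1 FPKM in only 2 libraries and was therefore not tested. It read 47.4, 0.05 and 0.240 FPKM in wild type and 0.420, 1.16 and 0.840 FPKM in NICD2. The 1 high value belongs to wild-type replicate 1, the library with adrenal and fat transcripts. With all libraries the mean was 19.7-fold lower in NICD2, and without wild-type replicate 1 it was 5.56-fold higher. Without the filter on low values the log2 fold change was -1.16 (SE 1.48, adjusted p = 0.566), and without that library as well it was 0.64 (SE 0.19, adjusted p = 0.0436). The q of 0.0432 for a log2 fold change of -2.87 in the authors' deposited table includes that library. About 3 and 16 fragments stood behind the other wild-type values.

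**Figure D4:**
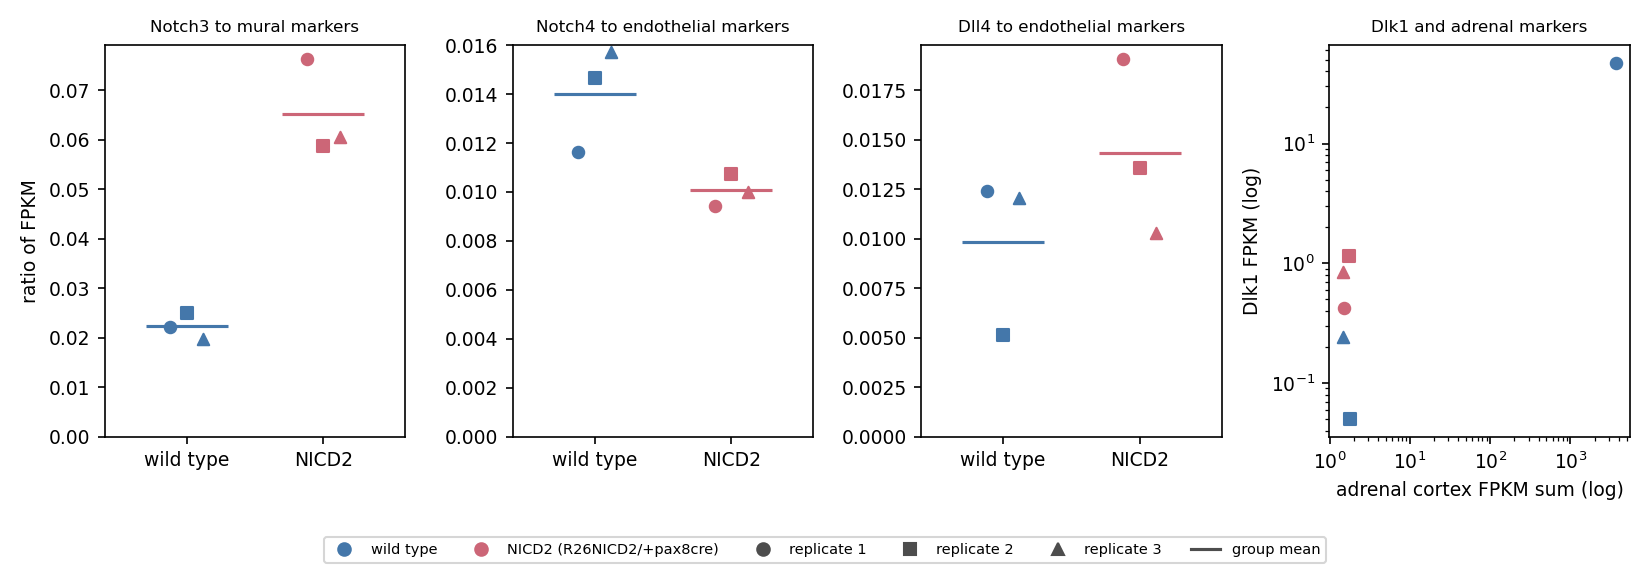
Ratio of FPKM of Notch3 to the mural marker sum, and of Notch4 and Dll4 to the endothelial marker sum, by library with group means, and at right Dlk1 against the adrenal cortex marker sum on log axes. The Notch3 ratio is 2.91-fold higher and the Notch4 ratio 1.38-fold lower in NICD2, the Dll4 ratios overlap, and wild-type replicate 1 holds 3707 FPKM of adrenal cortex markers beside 47.4 FPKM of Dlk1.

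Leaving out wild-type replicate 1 changed no other member's call. The folds without it were 16.0 for Notch1, 2.64 for Notch2, 8.94 for Notch3 and 20.4 for Jag1, and Notch4 was 2.82-fold lower. The NOTCH2 row was 211.4-fold higher.

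The order of the levels differed between the groups. In wild type the mean of Dlk1 was the highest, at 15.9 FPKM, but its libraries ran from 0.05 to 47.4 FPKM and spanned those of all other members. The other annotated members followed in the order Notch2 (5.08 FPKM), Notch4 (4.48), Notch1 (3.60), Jag1 (3.24), Dll4 (3.17), Notch3 (3.02), Dll1 (2.33) and Jag2 (1.70). Neighbours among these 8 overlapped in their libraries, except Dll1 and Jag2. In NICD2 the order was NOTCH2, Jag1 (58.1 to 73.8 FPKM), Notch1 (50.9 to 52.7), Notch3 (22.7 to 25.8), Notch2 (12.2 to 13.4) and Dll4 (1.90 to 2.73), and no neighbours among these overlapped. Below them Dll4, Dll1, Notch4, Jag2 and Dlk1 overlapped with the next in order.

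Some genes outside the family had nearly the same profile over the 6 libraries on the log2(FPKM + 1) scale. Likeness was the root mean square difference of log2(FPKM + 1), each gene centred on its own mean, so it follows the group difference and shares the libraries. Closest to Jag1 were Cdh6, a cadherin of early nephron epithelium (difference 0.046; 1.14 to 32.1 FPKM in the group means), and Adamts16, a secreted metalloprotease (0.106; 0.753 to 29.5 FPKM). Closest to Notch1 were Lama1, a laminin chain (0.103; 1.70 to 31.8 FPKM), and Marcksl1 (0.123; 9.19 to 107.0 FPKM). For Notch3 they were the netrin receptor gene Unc5b (0.0767; 1.53 to 14.5 FPKM) and Trim46 (0.0847; 0.570 to 8.02 FPKM). Nearest to Notch4 were Pi4ka, a lipid kinase (0.0307; 37.3 to 18.4 FPKM), and Cpox, an enzyme of haem synthesis (0.0392; 38.6 to 17.6 FPKM), neither of them an endothelial marker. The scale shrinks the fall of Notch4 (4.48 to 1.68 FPKM) more than that of these abundant genes. Their closeness to Notch4 is therefore not a likeness of folds in FPKM.

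The genes for enzymes that process the receptors gave counts near the shares over all genes, 45.1% higher and 16.2% lower (28.7% and 25.7% after scaling). Of 12 genes for furin, the ADAM proteases, gamma-secretase and the glycosyltransferases that prime the receptor, 5 rose and 2 fell, with a median log2 fold change of 0.34. After scaling it was 2 and 3 with a median of 0.02, the same as that of all genes. Ncstn, the substrate-binding subunit of gamma-secretase, rose from 31.2 ± 1.75 to 53.5 ± 2.83 FPKM (adjusted p = 6.13e-04), and Adam17, a sheddase, from 8.86 ± 1.63 to 15.1 ± 1.64 FPKM (adjusted p = 0.00547; SD, n = 3 each). Psenen, the most abundant of them and another gamma-secretase subunit, did not pass (114.8 ± 16.0 and 130.5 ± 8.58 FPKM, adjusted p = 0.230). The 2 that fell, named after their values were seen, were Aph1b and Aph1c, near-identical gamma-secretase genes between which fragments can be split, so their separate values are uncertain.

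Modulators of ligand and receptor activity included several large rises, although their counts were not far from the shares over all genes (45.1% higher and 16.2% lower, and 28.7% and 25.7% after scaling). Of 16 such genes 9 rose and 0 fell in limma (9 and 0 at an unadjusted p under 0.05), with a median log2 fold change of 0.62, and after scaling 6 rose and 3 fell with a median of 0.32. Lfng, the fringe glycosyltransferase that alters which ligands a receptor answers to, rose from 4.90 ± 0.834 to 20.3 ± 1.99 FPKM (adjusted p = 1.04e-04; SD, n = 3 each). The other fringe genes, named after their values were seen, did not pass: Mfng was at 4.91 ± 2.96 and 2.74 ± 0.645 FPKM (adjusted p = 0.179) and Rfng at 28.7 ± 2.15 and 23.9 ± 4.52 FPKM (adjusted p = 0.174). Dtx1, a Deltex ubiquitin ligase that is itself a Notch target, rose from 0.690 ± 0.663 to 16.7 ± 1.96 FPKM (adjusted p = 1.24e-04). Dtx3, the most abundant modulator, was at 32.6 ± 3.99 and 38.8 ± 7.86 FPKM (adjusted p = 0.272).

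Of 12 genes for the nuclear complex and its corepressors, 11 rose and 0 fell in limma (11 and 0 at an unadjusted p under 0.05). Of all genes 45.1% rose and 16.2% fell. The median log2 fold change was 0.62, beside 0.32 for all genes. After scaling 6 rose and 0 fell (6 and 1 unadjusted), beside 28.7% and 25.7% of all genes. The median was then 0.32, beside 0.02 for all genes. Rbpj, the DNA-binding partner of the intracellular domain, read 8.07, 7.56 and 6.31 FPKM in wild type and 12.7, 13.1 and 14.4 FPKM in NICD2. Its groups did not overlap and it rose 1.83-fold (adjusted p = 0.00142; 0.00763 after scaling), a gene named after its values were seen. Maml3, a Mastermind coactivator, rose from 1.16 ± 0.255 to 3.20 ± 0.184 FPKM (adjusted p = 0.00101). Hdac1, a histone deacetylase of corepressor complexes, rose 2.59-fold to 74.2 ± 3.73 FPKM (adjusted p = 1.00e-04; SD, n = 3 each). These gains were small beside those of Notch1 and Jag1.

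Of 15 listed targets 13 could be tested, and 12 rose and 1 fell, with a median log2 fold change of 2.64 (12 and 1 after scaling, median 2.41). Hes5, Hey2 and Sox9 were under 1 FPKM in every wild-type library and passed the filter only through the NICD2 libraries. A call for these genes could only be a rise. With any 1 NICD2 library left out, 10 targets were tested, of which 9 rose and 1 fell. Of all genes 45.1% rose and 16.2% fell, with a median of 0.32 (28.7% and 25.7% after scaling, median 0.02). Ccnd1, a G1 cyclin and the most abundant of them, rose 8.49-fold from 77.6 ± 18.7 to 658.7 ± 62.5 FPKM (adjusted p = 6.00e-05). Heyl and Nrarp, a repressor and a feedback regulator induced by Notch, had the smallest p of the list and rose to 203.8 ± 12.3 and 498.2 ± 19.1 FPKM (SD, n = 3 each). The 1 that fell, named after its values were seen, was Hes6, a Hes relative that opposes Hes1, from 26.4 ± 2.54 to 13.6 ± 0.886 FPKM (adjusted p = 5.83e-04).

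Most other proposed ligands were low in both groups. Of 11 such genes 5 passed the filter, of which 1 rose and 0 fell in limma (2 and 0 at an unadjusted p under 0.05), with a median log2 fold change of 0.24. After scaling 1 rose and 0 fell (1 and 1 unadjusted), with a median of -0.05. For all genes the shares were 45.1% and 16.2%, with a median of 0.32 (28.7% and 25.7% after scaling, median 0.02). Thbs2, a matricellular protein, rose from 1.47 ± 0.190 to 2.76 ± 0.336 FPKM (adjusted p = 0.00683). Egfl7, a secreted endothelial protein and the most abundant of the list, was at 21.5 ± 1.87 and 21.5 ± 2.17 FPKM (adjusted p = 0.994; SD, n = 3 each). Mfap5, of elastic microfibrils, was at 3.45 ± 2.15 and 7.30 ± 1.11 FPKM (adjusted p = 0.0554). Dll3, the remaining Delta-type gene, was at 0 to 0.170 FPKM in all 6 libraries. The 5 lists together held 57 tested genes, of which 37 rose and 3 fell, beside 45.1% and 16.2% of all genes. The 57 include the targets Hes5, Hey2 and Sox9, which passed the filter only through the NICD2 libraries. After scaling 26 rose and 7 fell, beside 28.7% and 25.7%.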

How the data were processed

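Whole-kidney RNA of 3 wild-type and 3 R26NICD2/+pax8cre libraries was compared. Groups were taken from the genotype labels. The deposited table held 23873 rows with 1 FPKM value per library made by the authors, of which 4370 rows without values were left out. It also held log2 fold changes and q-values that the authors made with DESeq2, per the file headers. Bowtie 0.12.2 and mm8 are named in the submitters' processing notes. The positions in the file were read as GRCm38, since 15567 of 17966 identifiers (86.6%) matched RefSeq's GRCm38 start and end, including 8 of 9 annotated members. The counting tool and the annotation version were not given in the sources used here.

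limma 3.58.1 with a mean-variance trend (R 4.3.3) was fitted two-sided to log2(FPKM + 1), with genotype as the only term. Genes that reached 1 FPKM in 3 or more libraries were kept (13500), and an adjusted p under 0.05 was called. Ratios used exact permutation tests (SciPy 1.17.1, Python 3.11.15). Folds are ratios of group mean FPKM. Depth was estimated from the steps between low values, over a limited range because a doubled depth matched as well. At the estimate 67.0 to 74.1% of values lay within 0.15 of a whole fragment, so fragment numbers are approximate and no count test was run. They assume the longest transcript and cover counting error only. In data simulated on 13500 genes with this design 67.7% of genes with a true log2 change of 1 were called and 93% of those with 2, and 7.51% of calls were false. Only 99 and 100 genes were changed there, against 8285 called in the data. All of them had a wild-type mean of log2(FPKM + 1) above 2. Jag2, Dll1, the NOTCH2 row and, by little, Notch3 lie below that level, so these rates do not cover them.

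Members and lists were chosen with earlier results of these data known. All members were named. From each pathway list the most abundant gene and the 2 with the smallest p were named, and for Notch1, Notch3, Jag1 and Notch4 the 2 nearest profiles. Nov was read as Ccn3, and Trac had no match. Alternatives were pseudocounts of 0.1 and 5, no filter, median-of-ratios scaling, quantile normalization, a replicate block, no trend, an adjusted p under 0.01, and each library left out. No filter, and scaling, each without wild-type replicate 1, were chosen after seeing the data. Promoter windows are from RefSeq GRCm38.p6. Protein sequences were not used here.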

Additional observations from a re-analysis of the deposited data

How the results depend on the processing

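Over 16 alternatives NOTCH2, Notch1, Notch2, Notch3, Notch4 and Jag1 kept their direction and their call, and no tested member changed direction. Jag2 gained a call in 4, Dll1 in 3 and Dll4 in 1. Members called lower numbered 3 after median-of-ratios scaling, 3 after quantile normalization and 3 after scaling without wild-type replicate 1, against 1 as reported. Leaving out 1 library at a time gave 1 to 2, with 2 without wild-type replicate 2 (Dll4) and 2 without NICD2 replicate 2 (Jag2). Over all genes, 3873 (scaling) and 3866 (quantile) were called higher against 6095, and 3473, 3558 and, with scaling without wild-type replicate 1, 3600 lower against 2190. Pathway genes called lower numbered 7, 9 and 9 under the same settings against 3. These scalings centre the median of all genes near 0, which moves calls from higher to lower. Receptor processing genes called higher numbered 2 after scaling and 1 after quantile normalization against 5, and nuclear complex genes 6 and 7 against 11. With the replicate block 5818 genes were called higher and 2164 lower, and 5 members higher and 1 lower. The deviations of same-numbered libraries from their group means had correlations of 0.10, -0.05 and 0.01 across genes. Those of differently numbered libraries ran from -0.12 to 0.20. With 3 libraries per group this cannot decide whether the numbers pair them. The 6 ratios kept their direction without each library in turn, and the Notch4 to endothelial ratio then differed by -0.59 to -0.38 and the Dll4 ratio by 0.18 to 0.82 in log2. Jag2, Dll1 and Dll4 rest on an estimated 50 to 204 fragments per library, and the part of depth in their missing calls was not tested.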
